A study of Homo sapiens with 6 samples.

Results

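The 10 replication-dependent histone H3 genes of chromosome 6 that were followed here are H3C1, H3C2, H3C3, H3C4, H3C6, H3C7, H3C8, H3C10, H3C11 and H3C12. They were chosen as a gene family out of 19061 protein-coding genes with a MANE Select transcript (the single reference transcript agreed for each gene) in GENCODE release 44. Earlier results of these data were known when they were chosen. The paper had already reported an enrichment of histone mRNAs among those bound near the stop codon. Every cross-link position on the sense strand inside the exons of the 10 genes was counted, whether or not the deposited tables gave it a gene name. eIF4B iCLIP had been carried out in 2 B-cell lines. DoHH-2 is derived from a diffuse large B-cell lymphoma (DLBCL) and its table pools 4 replicates, while GM01953 is a B-cell line from a disease-free donor and its table pools 2. Neither line was treated, the lines are not isogenic, and each stands alone for its kind, so tumour origin and cell line cannot be told apart. In iCLIP, cells are irradiated with UV, eIF4B is immunoprecipitated with the RNA cross-linked to it, and reverse transcription stops at the cross-linked nucleotide. Each count is therefore 1 cDNA assigned to 1 base. The counts were not scaled by mRNA level, so more mRNA and more eIF4B per mRNA cannot be told apart in any value below.

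Replication-dependent histone mRNAs are made in S phase, when new DNA must be packed into nucleosomes. They are the mRNAs of animal cells that carry no poly(A) tail, and end instead a few bases after a conserved stem-loop. SLBP, the stem-loop binding protein, holds that structure through processing, translation and decay, and UPF1, a helicase, is needed for the rapid decay of these mRNAs when DNA synthesis stops. eIF4B is the cofactor that stimulates the helicase eIF4A as ribosomes are loaded onto mRNA, and it binds RNA itself. Histone H3 forms with H4 the central tetramer of the nucleosome.

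Each of the 10 genes is a single exon of 482 to 512 nt on GRCh38, with a 5′ UTR of 20 to 39 nt, 411 nt of coding sequence with its stop codon, and a 3′ UTR of 48 to 67 nt. H3C1 to H3C8 lie between 26020451 and 26271413 of chromosome 6, and H3C10, H3C11 and H3C12 between 27810051 and 27890826. The deposited tables name the 10 genes HIST1H3A to HIST1H3J in this order. The coding sequences all translate to the same protein of 136 residues, although any pair of them shares only 80.9% to 88.2% of its bases. The family can therefore be told apart by sequence, and 98.6% of the H3 counts in DoHH-2 and 99.3% in GM01953 fell on positions whose surrounding 31 nt occur once in the genome. The stem-loops are close to identical. Their letters were read from the genome and are shown because all distances below are measured from the first base, with the bases that vary in capitals. The first form is shared by 8 genes. H3C6 differs from it by T8C and H3C8 by C10A, counted from 1 at the 5′ end of the stem-loop.
8 genes: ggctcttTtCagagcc
H3C6: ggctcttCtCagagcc
H3C8: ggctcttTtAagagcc

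The 30 nt just before the stem-loop, which lie in the 3′ UTR or begin at the stop codon, held 38.5% of the H3 counts in DoHH-2 and 51.5% in GM01953. They are printed 5′ to 3′ on the sense strand because the results turn on them. The capital is the base with the highest count of the window in DoHH-2, given where that count was at least 10.
H3C1 (chr6:26020902-26020931, plus strand): Tactgtggtctctctgacggtccaagcaaa
H3C2 (chr6:26031613-26031642, minus strand): gtcactttTtcatcagtcttaaaacccaaa
H3C3 (chr6:26045819-26045848, plus strand): taaGtctgcccgtttcttcctcattgaaaa
H3C4 (chr6:26196805-26196834, minus strand): Cttgtgaatgtgtgctaaccaaaacccaaa
H3C6 (chr6:26225566-26225595, plus strand): attgttttgagtacaaaccttaaatccaaa
H3C7 (chr6:26250161-26250190, minus strand): tactgagggtgtgcgccaacttaaaCcaaa
H3C8 (chr6:26270939-26270968, minus strand): tccgggcagtaattcTatccaacttaaaaa
H3C10 (chr6:27810486-27810515, plus strand): tctCaaggactcactgattacatacccaaa
H3C11 (chr6:27871866-27871895, minus strand): tcagcccaaGaagtctgtccaaccccaaaa
H3C12 (chr6:27890336-27890365, minus strand): gggtTtcttaattgcttccaagcttccaaa
Unlike the stem-loops, these windows have little sequence in common beyond their last 3 bases, which are aaa in all 10. H3C2 carries a run of 5 T around its highest base, whereas the longest run in H3C1 and in H3C11 is 1 T.

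DoHH-2 held 2033156 counts at 1179243 positions and GM01953 held 167197 at 78474, a 12.2-fold difference in depth. The deposited values have no replicate columns, so no spread between replicates and no test between the cell lines could be computed. The intervals given are 95% intervals of counting error only (Wilson for a share, exact for a ratio or a level), and cDNAs left over from PCR duplicates would make them too narrow. Markers were checked over the MANE Select exons: 9 of 10 B-cell markers had a count in DoHH-2 and 10 of 10 in GM01953, with summed levels of 912 and 3965 CPM (counts scaled by the library total). CD22 was the B-cell marker listed at 0 in DoHH-2. The T-cell (5 genes), monocyte (6) and erythroid (5) markers were at 0 in both.

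By counts, 7 of the 10 H3 mRNAs ranked from 2 to 37 among coding genes in DoHH-2 and from 1 to 39 in GM01953, whereas H3C7 ranked 5000 and 63 and H3C6 9099 and 2891. Together the 10 genes held 80315 counts in DoHH-2, which is 3.95% (3.92 to 3.98) of the library, and 4334 in GM01953, which is 2.59% (2.52 to 2.67). DoHH-2 thus carried 1.52 times the share of GM01953 (1.48 to 1.57). For comparison, the median ratio of CPM was 1.46 over the 10 H3 genes and 1.51 over the 9 with at least 20 counts in the lines together. Over the 7990 coding genes that reached this number the median was 1.32, with quartiles of 0.718 and 2.84, a spread that low counts in GM01953 widen. Of these coding genes, 55.3% had a ratio below the H3 median of 1.51. By positions instead of counts the ratio of H3 shares reversed to 0.265. A position counts once however many cDNAs it holds, and 88.8% of the H3C2 bases had a count in DoHH-2 against 26.8% in GM01953. At unequal depth the value by positions therefore cannot decide the direction. With sites below an FDR of 0.05 alone the ratio was 2.63. Positions listed under no gene cannot be sites, and these held 31.8% of the H3 counts in DoHH-2 and 42.7% in GM01953. The value by sites therefore cannot be set directly against 1.52. With median-of-ratios scaling it was 1.47. Thinned at random to the depth of GM01953, DoHH-2 kept 6531 to 6791 H3 counts over 10 draws, at 1630 to 1679 positions. GM01953 had its 4334 at 834 positions, so its counts were stacked on fewer bases. H3C7 kept 2 to 7 counts in these draws against 171 in GM01953, and H3C6 0 to 1 against 8. Whether the number of pooled replicates plays a part in this was not tested.

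An eIF4B binding site is defined here as a position with a false discovery rate (FDR) below 0.05, which the authors obtained by permuting counts within a gene. By the threshold of more than 20 counts at such sites, DoHH-2 had 8 bound H3 genes of the 10 and GM01953 had 9. The same threshold was passed by 33.7% of the 10695 coding genes with a count in DoHH-2 and by 6.56% of the 8447 in GM01953. H3C6 failed in both lines, with 0 and 5 counts at sites, and H3C7 failed in DoHH-2 with 6 but passed in GM01953 with 23. The site counts are low estimates except in H3C4, H3C6 and H3C8, whose counts all had a gene. The deposited tables list the UTR counts of H3C1, H3C2, H3C3, H3C7 and H3C11 under no gene in either line, as they do 86.0% of those of H3C12 in DoHH-2 and 90.9% in GM01953, and a position without a gene has an FDR of 1. In all, 25519 H3 counts in DoHH-2 (31.8%) and 1849 in GM01953 (42.7%) had no gene. All of them lay in UTRs and none in coding sequence. The share was 13.9% and 20.9% in the H4 genes of chromosome 6. In H3C4 the coding counts (4805 and 171) are in addition listed under 2 gene identifiers, and were counted once.

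Among the members, H3C2 had the highest level by a wide margin. It held 23947 counts in DoHH-2 and 1403 in GM01953, or 46.9 and 2.75 counts per nt of mRNA, and made up 29.8% and 32.4% of all H3 counts. By counts it ranked 2 among all coding genes in DoHH-2 and 1 in GM01953. H3C8 followed in DoHH-2 with 13157 counts, 1.77-fold below H3C2 per nt (1.73 to 1.80). Then came H3C4 with 10292 counts, H3C10 with 9367, H3C3 with 8946, H3C12 with 7657, H3C11 with 5143 and H3C1 with 1746. H3C7 and H3C6 closed the order with 53 and 7 counts. At the depth of DoHH-2 every neighbouring pair in this order differed by more than its counting error.

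In GM01953 the upper part of the order was flatter. H3C2 stood 2.62-fold above the next gene per nt (2.36 to 2.90). H3C10 with 510 counts, H3C8 with 514, H3C3 with 457 and H3C4 with 462 then followed per nt, and no neighbours among these 4 could be told apart within counting error. Nor could H3C12 (367 counts) and H3C11 (318 counts). H3C7 came eighth with 171 counts, ahead of H3C1 with 124 and H3C6 with 8. Apart from H3C7, the same genes were thus high, intermediate and low in both lines.

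The ratio between the lines, in CPM, lay within a narrow range for 8 of the genes and had the opposite direction for the other two. It ran from 1.16 for H3C1 (0.965 to 1.40, an interval that holds 1) through 1.33 for H3C11, 1.40 for H3C2, 1.51 for H3C10, 1.61 for H3C3, 1.72 for H3C12 and 1.83 for H3C4 to 2.10 for H3C8 (1.93 to 2.30). H3C7 had 26.1 CPM in DoHH-2 and 1023 in GM01953, which is 39.2-fold higher in GM01953 (28.7 to 54.5). H3C6 had 3.44 and 47.8 CPM, 13.9-fold higher in GM01953 (4.40 to 45.02), although this rests on 7 and 8 counts. Of the 9 H3 genes with at least 20 counts in the lines together, 1 (H3C8) was more than 2-fold higher in DoHH-2, against 34.5% of the 7990 coding genes, and 1 (H3C7) more than 2-fold higher in GM01953, against 14.2%. The 34.5% includes coding genes with 0 counts in GM01953, and low counts widen the spread of such ratios. The 8 H3 genes other than H3C6 and H3C7 had 124 to 1403 counts in GM01953.

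H3C6 and H3C7 are consecutive H3 genes on the chromosome, and the histone genes between and beside them were therefore compared, a choice made after their values were seen. Within 50 kb of either gene lie 16 core histone genes, 14 of which reached 20 counts, and the linker histone gene H1-3. H4C6, which lies between H3C6 and H3C7, had 30 counts in DoHH-2 against 169, a ratio of 0.0146 (0.00955 to 0.0216). H2BC9, the next gene after H3C7, had 14 and 100 counts, a ratio of 0.0115 (0.00608 to 0.0202). H4C7, also between them, had 2 and 0 counts. These 5 core histone genes, which span 26225135 to 26252075, thus had at most 53 counts each in DoHH-2. H1-3 lies among them, between H3C6 and H4C6, and did not share the pattern, with 3831 counts in DoHH-2 against 378 and a ratio of 0.833 (0.7497 to 0.9288). The core histone genes on either side, H2AC8 and H3C8, had 10007 and 13157. One more gene within the 50 kb, H2BC6, was low in DoHH-2 with 34 counts against 60 in GM01953. H4C4 and H3C4 stand between H2BC6 and H2AC7 at ratios of 1.34 and 1.83. Over the 38 H4, H2A and H2B genes of chromosome 6 with at least 20 counts, 4 were more than 2-fold higher in GM01953, 3 more than 2-fold higher in DoHH-2, and the median ratio was 1.45. H2AC1, with 78 counts in DoHH-2 and 0 in GM01953, has no finite ratio and is not among the 3.

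The H3 genes of chromosome 1 were set beside them. H3C13 had 0 counts in DoHH-2 and 10 in GM01953, H3C14 had 21 and 65, and H3C15 had 11 and 71. H3C14 and H3C15 are near-identical copies, so their separate values are uncertain. As a group these 3 genes had a ratio of 0.0180 (0.0119 to 0.0266), the same direction as H3C6 and H3C7. H3-3B, which encodes the replacement variant H3.3 from a polyadenylated mRNA with no stem-loop, had 742 counts in DoHH-2 and 39 in GM01953. H3-3A, the other H3.3 gene, had 19 and 3.

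Counts within the H3 mRNAs piled up between the stop codon and the stem-loop. This stretch of 27 to 46 nt makes up 6.93% of the bases of the 10 mRNAs, and 43.1% of the DoHH-2 counts and 56.2% of those of GM01953 fell in it. The summed density was 100.3 counts per nt there in DoHH-2, against 9.48 in the coding sequence and 22.0 in the 5′ UTR. GM01953 had 7.06, 0.396 and 0.877. In each of the 9 genes with more than 20 counts, the density before the stem-loop exceeded the mean of the same mRNA, by 4.19 to 10.1 times in DoHH-2 and by 5.55 to 10.1 times in GM01953. The coding sequence stayed below the mean of the mRNA in every one of them, at a median of 0.571 and 0.478 of it. The 5′ UTR had medians of 1.27 and 0.965 and ranged from 0 in H3C7 to 2.47 in DoHH-2 and from 0.364 to 2.52 in GM01953.

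By the wider window of 50 nt to each side of the stop codon, the H3 mRNAs held 58.3% of their counts in DoHH-2 (58.0 to 58.7) and 64.9% in GM01953 (63.5 to 66.3), on 20.6% of their bases. By positions, where a base counts once at any depth, the shares were 19.8% and 36.8%. Single genes with more than 20 counts ranged from 45.2% for H3C1 to 69.8% for H3C7 in DoHH-2, and from 46.8% for H3C1 to 76.1% for H3C2 in GM01953. Summed in the same way over all coding genes with more than 20 counts, histone genes included, the share was 22.4% and 31.8%. Each gene weighs in this sum by its counts, and the H3 genes alone held 3.95% and 2.59% of the libraries. The median over all coding genes with more than 20 counts was 2.86% in DoHH-2 (7641 genes) and 0% in GM01953 (989 genes). The same window covers a median of 2.93% and 3.32% of their mRNAs. H3-3B had 12.5% and 10.3%. The stop-codon share of the H3 genes was below that of their partners in the nucleosome, since the chromosome 6 genes for H4 had 69.1% and 83.1%, those for H2A 71.3% and 80.3%, and those for H2B 69.5% and 78.0%. The window covers a larger part of a shorter mRNA, and its part of the H4, H2A and H2B mRNAs is not given here. The window around the start codon held 17.5% of the H3 counts in DoHH-2 and 16.6% in GM01953, on 16.8% of the bases.

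The 30 nt before the stem-loop held 38.5% of the H3 counts in DoHH-2 (38.1 to 38.8) and 51.5% in GM01953 (50.01 to 52.99), on 6.02% of the bases. By positions, where a base counts once at any depth, the shares were 6.43% and 19.7%. At sites below an FDR of 0.05 they were 24.5% and 36.4%. H3C2 was the extreme of the well-covered genes, with 55.4% and 72.6%. H3C12 had 39.2% and 45.2%, H3C8 36.3% and 52.9%, H3C4 33.1% and 38.1%, and H3C10 27.4% and 37.3%. The lowest shares were those of H3C1 (25.9% and 33.9%), H3C3 (25.8% and 42.7%) and H3C11 (20.9% and 27.04%). In 8 of the 9 genes with more than 20 counts in both lines the share was higher in GM01953. H3C7 was the exception with 69.8% in DoHH-2 (56.5 to 80.5) and 47.4% in GM01953 (40.0 to 54.8). In H3C1, H3C4 and H3C12 the counting intervals of the lines overlapped. The other core histones gave nearly the same summed shares in DoHH-2, with 38.3% for H4, 38.5% for H2A and 38.5% for H2B. In GM01953 the shares of H4 (57.1%, 55.9 to 58.3) and H2A (57.3%, 55.9 to 58.7) lay above that of H3. That of H2B (53.1%, 51.7 to 54.4) had an interval that overlapped with it. The part of the bases that these 30 nt make up in the other families is likewise not given here. The shift towards the stem-loop in GM01953 was thus seen across the core histone families.

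Without H3C2 the share before the stem-loop fell to 31.3% in DoHH-2 and 41.4% in GM01953. In steps of 10 nt, counts were most frequent from 30 to 21 nt before the stem-loop, with 24.01% of all H3 counts in DoHH-2 and 30.2% in GM01953. The 10 nt closer to it held 12.9% and 17.5%, and the last 10 nt only 1.53% and 3.78%. The step from 40 to 31 nt held 7.41% in each line.

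No count fell within the 160 bases of the 10 stem-loops, in either line. A count of 0 allows a share of up to 0.00374% in DoHH-2 and 0.0692% in GM01953. The nearest counted base lay 2 nt before the stem-loop in DoHH-2 (H3C7 and H3C8) and 4 nt in GM01953 (H3C1 and H3C8), which is at least 20 and 24 nt before the annotated end of the mRNA. Past the stem-loop there was 1 count, in H3C2 in DoHH-2. In iCLIP the cDNA runs from the cross-link to the 3′ end of the RNA fragment. A cross-link in one of these stem-loops would leave at most 26 nt up to the annotated end, and how many such short cDNAs were kept through mapping was not tested.

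The highest base of each H3 mRNA lay between the stop codon and the stem-loop in all 9 genes with more than 20 counts, in both lines. It was the same base in both lines in 5 of the 9. In H3C2 it was position 26031634, 22 nt before the stem-loop within the run of 5 T, with 3525 counts in DoHH-2 (14.7% of the gene) and 370 in GM01953 (26.4%). This was also the highest position of the whole table in both lines, and the tables list it under no gene. In H3C1 it was 26020902, the second base after the stop codon and 30 nt before the stem-loop, with 161 counts (9.22%) and 23 counts (18.5%).

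H3C8 had its highest base at 26270953, 15 nt before the stem-loop, with 711 counts in DoHH-2 (5.40%) and 54 in GM01953 (10.5%). H3C11 had it at 27871897, 32 nt before, with 375 (7.29%) and 30 (9.43%). H3C12 had it at 27890361, 26 nt before, with 452 (5.90%) and 35 (9.54%). In all 5 of these genes the single base took a larger part of the gene's counts in GM01953.

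In the other 4 genes the first place changed. H3C10 had 435 counts at 27810489 (27 nt before) and 293 at 27810504 (12 nt before) in DoHH-2, and 26 and 40 counts at these bases in GM01953. H3C4 led at 26196834 with 458 counts (30 nt before) in DoHH-2 and at 26196836 with 26 counts (32 nt before) in GM01953, 2 nt apart. H3C3 led at 26045822 with 354 counts, the first base after the stop codon, in DoHH-2. In GM01953 it led at 26045844 with 32 counts, 5 nt before the stem-loop. H3C7 led 5 nt before the stem-loop with 12 counts in DoHH-2 and 10 nt before it with 25 counts in GM01953.

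Base by base, the profile of each of the 8 best-covered genes resembled itself in the other line more than it resembled any other member. From 100 nt before to 20 nt after the first base of the stem-loop, Pearson's r between the lines was 0.964 for H3C2, 0.904 for H3C8, 0.866 for H3C10, 0.857 for H3C4, 0.854 for H3C1, 0.843 for H3C11, 0.832 for H3C12 and 0.788 for H3C3. It was 0.261 for H3C7 and -0.022 for H3C6, which had few counts. These are descriptions over 121 bases that share sequence, and neighbouring bases are not independent. Between members of one line the profile nearest to H3C2 was that of H3C12, with r = 0.589 in DoHH-2 and 0.654 in GM01953. Nearest to H3C1 was H3C4 (0.640 and 0.355), and nearest to H3C3 was H3C8 (0.468 and 0.506). The median r of a member with the other members never exceeded 0.389 in DoHH-2 or 0.325 in GM01953. Aligning the 8 best-covered genes on the stop codon instead of the stem-loop lowered the median r over their 28 pairs, within 60 bases, from 0.228 to 0.0912 in DoHH-2 and from 0.144 to 0.107 in GM01953. The ranges over pairs overlapped widely. On the stem-loop they were 0.0110 to 0.638 in DoHH-2 and -0.0661 to 0.633 in GM01953. On the stop codon they were -0.173 to 0.595 and -0.0789 to 0.402.

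Counts in these windows favoured T. In the 30 nt before the stem-loop T makes up 27.3% of the bases, and DoHH-2 had 56.5% of its counts there on T and GM01953 58.6%. A, at 32.3% of the bases, took 5.76% and 6.09%. The aaa that closes all 10 windows was nearly empty, and the last 5 bases together held 1.66% and 2.55% of the counts of the windows. These bases are also the ones of the window closest to the mRNA end. Whether base preference or a loss of short cDNAs plays a part there was not tested. In the coding sequence of the H3 genes T took 27.4% and 28.9% of the counts, on 17.1% of the bases. G led there with 34.7% and 39.4%, on 29.7% of the bases. Over all coding exons T had 42.6% and 40.5% of the counts. UV cross-linking is known to favour uridine, so base preference of the method and of eIF4B cannot be told apart here.

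Within the coding sequence the summed counts gathered towards its ends. Over 411 nt, the first 60 nt held 19.1% of the coding counts in DoHH-2 and 28.0% in GM01953. The last 51 nt held 28.7% and 22.6%, and the 60 nt before those 22.7% and 17.6%. The 4 stretches of 60 nt in between held 6.50% to 7.94% each in DoHH-2 and 5.78% to 10.6% in GM01953. Gene by gene, among the 8 H3 genes that exceeded 100 counts in DoHH-2, the first 60 nt held 10.8% to 30.1% of that line's coding counts and the second 60 nt 5.39% to 10.3%, without overlap. The last 51 nt held 20.5% to 39.9% there. GM01953 had exceptions, since H3C12 had 4.43% of its coding counts in the last 51 nt and 31.01% from base 181 to 240, and H3C1 had 27.6% from base 121 to 180. H3C2, the gene with the most counts, had only 11.7% in the last 51 nt in this line. H3C4 had 15.2% from base 121 to 180 against 9.36% from base 301 to 360.

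Because the coding sequences align without gaps, recurrent bases could be sought across members, and the base described was chosen after its values were seen. Base 313 of the coding sequence, the first base of codon 105, was among the 20 highest coding bases in all 8 of these genes in DoHH-2, and in 6 of the 8 in GM01953. It was the only base to reach this in all 8 genes in DoHH-2, and none did in GM01953. It held 28 to 190 counts in DoHH-2, a median of 1.65% of the coding counts of a gene, and 0 to 8 counts in GM01953. Its surroundings are shown for 4 genes because the base recurs while the flanking letters vary: over the 8 genes, 15 of the 21 bases are identical. The capital is base 313.
H3C1 (chr6:26020792-26020812, plus strand): ggtagggctaTttgaggacac
H3C2 (chr6:26031738-26031758, minus strand): ggtagggctcTttgaggacac
H3C3 (chr6:26045713-26045733, plus strand): ggtgggactcTtcgaagacac
H3C12 (chr6:27890470-27890490, minus strand): ggtgggtctcTttgaagacac
H3C2 had 190 counts at this base in DoHH-2 and 6 in GM01953, H3C1 28 and 8, H3C3 89 and 4, and H3C12 38 and 0. In H3C1 it shared the first place among the coding bases of GM01953, with 13.8% of the coding counts, while in H3C4 and H3C12 it had 0 counts there. At the depth of GM01953 such zeros cannot be told from the shares seen in DoHH-2.

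The mRNAs for the proteins that process, translate and degrade histone mRNAs were counted for comparison. Of 25 listed genes 24 had a MANE Select coding transcript, of which 24 had a count in DoHH-2 and 21 in GM01953. Binding by more than 20 counts at sites was seen for 11 of the 24 in DoHH-2 and 1 in GM01953, against 33.7% and 6.56% of all coding genes with a count. SLBP was the one bound in GM01953, with 41 counts, and had 402 in DoHH-2. Others bound in DoHH-2 were SMG1, the kinase of UPF1 (439 counts), DCP2, a decapping enzyme (258), SRRT (235), CPSF2 (229), NCBP2 of the nuclear cap-binding complex (227) and UPF1 (177). Their 3243 summed counts in DoHH-2 and 207 in GM01953 remained far below those of the H3 mRNAs.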

How the data were processed

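eIF4B iCLIP of DoHH-2 and GM01953 was deposited as 1 table per cell line, pooled from 4 and 2 of the 6 samples. These hold cDNA counts for each cross-linked position, which the authors made as follows: duplicates were removed with BBMap, reads demultiplexed with Je, mapped to GRCh38 with HISAT2, and pooled replicates passed through iCount. Versions and the annotation release are not given in the sources used here. The deposited FDR, a q-value from permutation within genes, was used as given. Positions listed for several genes were counted once. The position column was read as 0-based, since its values match interval starts, and was raised by 1.

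Positions were placed on MANE Select exons of GENCODE release 44 by strand. The stem-loop was found by its consensus after the stop codon. Shares carry Wilson and ratios exact conditional intervals (scipy 1.17.1), and steps were tested on simulated data. Depth was 2033156 and 167197 counts. 10 random draws thinned DoHH-2. Named genes were all 10 members, the H3 genes of chromosome 1, H3.3 genes and a fixed list of histone mRNA factors. Members and lists were chosen with earlier results of these data known. Alternatives covered FDR, gene assignment, unique sequence, windows, coordinates and scaling.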

Additional observations from a re-analysis of the deposited data

Results flagged for a closer look

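Sense counts beyond the annotated ends of the H3 mRNAs belong to no comparison above. In the 200 nt after each end, 2000 bases in all, DoHH-2 had 9 counts at 9 positions, in 4 of the 10 genes. They are listed because they exceed 3 counts, the most that a count of 0 allows. That number is not a background level, and whether 9 exceeds the background was not tested. No position had more than 1 count. GM01953 had 1. The antisense strand of the exons held 2 counts in DoHH-2 and 0 in GM01953.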

How the results depend on the processing

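Of 62 alternative values, 20 stayed within the counting interval of the reported value (or, for a count of genes, within 1.5 times), 41 moved outside it and 1 reversed. Counting positions instead of cDNAs reversed the ratio of H3 shares to 0.265 and gave shares of 0.282% in DoHH-2 and 1.06% in GM01953. DoHH-2 has 1179243 positions in all and GM01953 78474. A position counts once at any depth, so this alternative cannot decide the direction of the ratio. Counting positions lowered the stop-codon share to 19.8% and 36.8% and the share before the stem-loop to 6.43% and 19.7%. With only FDR below 0.05, the H3 shares were 5.04% and 1.92%, their ratio 2.63, the stop-codon shares 54.1% and 55.4% and the shares before the stem-loop 24.5% and 36.4%. This filter also drops every H3 position listed under no gene. By the authors' gene assignment, which takes positions by their deposited gene name, the shares were 3.50% and 2.04% and the ratio 1.71. H3 positions listed under no gene are left out here. The H3 counts inside the exons that have a gene name make up smaller shares of the libraries than these. Named positions outside the exons are therefore included, and these values cannot be set directly against the reported shares and ratio. Without the highest position of each gene the H3 shares were 3.63% and 2.21%, with a ratio of 1.64. In DoHH-2, unique 31-nt words gave 3.89%, and 58.9% and 39.0% for the windows. With unique 31 nt downstream, an alternative added after seeing the data, DoHH-2 had 3.91%. Without H3C2, also added, the shares were 2.77% and 1.75%, the ratio 1.58, the stop-codon shares 55.3% and 59.6%, and the shares before the stem-loop 31.3% and 41.4%. Median-of-ratios scaling gave a ratio of 1.47. Narrower windows gave 49.4% and 58.7% (25 nt around the stop codon) and 14.5% and 21.3% (20 nt before the stem-loop). Means over genes were 60.3% for the stop codon in GM01953, and 36.2% and 46.0% before the stem-loop. Positions shifted by 1 nt gave 36.8% and 39.6% before the stem-loop in DoHH-2 and 49.98% in GM01953. Where an alternative does not itself remove the counts concerned, the cause was not tested.

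With more than 50 counts at sites, 6 H3 genes were bound in GM01953 instead of 9. No paired analysis was possible because the deposited tables pool the replicates, and no replicate could be left out. The depth of GM01953 limits single bases to few counts.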
